A study of Homo sapiens with 4 samples.

Results

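A set of 10 spliceosomal small nuclear RNA (snRNA) genes, 10 of the 58735 genes in the table, were examined in RNA-seq of cells that carry the label NB4, a human line from acute promyelocytic leukemia. They are the U4 genes RNU4-1 and RNU4-2, the U5 genes RNU5A-1, RNU5B-1, RNU5D-1, RNU5E-1 and RNU5F-1, and the minor-spliceosome genes RNU12, RNU4ATAC and RNU6ATAC. They were selected on the measured difference between treated and control libraries, so their values in that comparison are given as a description and without a test. There were 4 libraries, 2 from cells without GNE-987 (control) and 2 from cells given GNE-987, at 25 nM for 24 h by the paper's legend. GNE-987 is a bifunctional degrader of BET proteins, a molecule with one end for the target protein and another for a ubiquitin ligase. The labels do not say whether the 2 libraries of a group came from separate cultures, so the p-values of the tests on other genes measure only the spread between these libraries, which may be technical.

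The spliceosome removes introns from precursor mRNAs with the help of short RNAs that are bound by proteins as small nuclear ribonucleoproteins (snRNPs). U4 holds U6 in an inactive form until splicing begins, U5 lines up the exon ends, and U12, U4atac and U6atac serve the rare class of introns removed by the minor spliceosome, which also uses U5. The 2 U4 genes are near-identical, the U5 genes are less alike, and further annotated copies number from 1 for U12 to 95 for U4. Reads can be shared between near-identical copies, to an extent that differs by gene, so the value of a single copy is uncertain. Mature snRNAs also lack a poly(A) tail, which the TruSeq RNA kit named in the labels may have selected. The values are therefore levels of what these libraries held and not of the amount of each RNA in the cells.

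The U4 sequences below show how alike 2 copies can be, and the minor-spliceosome sequences are shown beside them. They were read from hg38 at the GENCODE release 44 positions, 5′ to 3′ on the gene's strand. In every sequence that has them, capitals mark the letters AATTTTTG, the site bound by the ring of Sm proteins. Searched on the gene's strand, these letters or AATTTTTTG occur in 9 of the 10 genes and in the first 120 bases of 0.282% of 35116 RefSeq promoters (GRCh38.p14).
RNU4-1: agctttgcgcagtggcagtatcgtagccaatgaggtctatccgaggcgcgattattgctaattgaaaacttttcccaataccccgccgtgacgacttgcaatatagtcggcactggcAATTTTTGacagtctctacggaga
RNU4-2: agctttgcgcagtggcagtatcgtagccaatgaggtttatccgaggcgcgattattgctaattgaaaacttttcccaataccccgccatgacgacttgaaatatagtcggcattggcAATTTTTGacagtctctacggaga
RNU12: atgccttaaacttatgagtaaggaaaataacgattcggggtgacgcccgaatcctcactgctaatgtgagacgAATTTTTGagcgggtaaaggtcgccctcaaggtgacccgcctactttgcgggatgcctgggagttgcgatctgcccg
RNU4ATAC: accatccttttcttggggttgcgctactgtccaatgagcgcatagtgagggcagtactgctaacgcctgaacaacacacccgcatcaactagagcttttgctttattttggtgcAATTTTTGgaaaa
RNU6ATAC: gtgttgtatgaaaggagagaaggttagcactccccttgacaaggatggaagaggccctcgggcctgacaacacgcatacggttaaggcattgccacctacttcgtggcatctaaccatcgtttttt

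RNU4-1 (ENSG00000200795, chr12:120293097-120293237) and RNU4-2 (ENSG00000202538, chr12:120291763-120291903) lie on the minus strand, 1194 bases apart, and differ at 4 of 141 bases, an identity of 97.2%. RNU5A-1 (ENSG00000199568, chr15:65296051-65296166) and RNU5B-1 (ENSG00000200156, chr15:65304677-65304792) lie on the plus strand of the same chromosome. RNU5D-1 (ENSG00000200169, chr1:44731055-44731170) and RNU5F-1 (ENSG00000199377, chr1:44721786-44721902) lie on the minus strand, 9153 bases apart, and RNU5E-1 (ENSG00000199347, chr1:11908152-11908271) is elsewhere on that chromosome, on the plus strand. Identity among the 10 pairs of U5 genes ran from 78.8% to 94.0%. The minor-spliceosome genes are RNU12 (ENSG00000276027, chr22:42615244-42615393, plus strand), RNU4ATAC (ENSG00000264229, chr2:121530881-121531007, plus strand) and RNU6ATAC (ENSG00000221676, chr9:134164439-134164564, minus strand). None of these 3 has another gene of its family among the 10.

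A read can be placed on 1 copy only where its bases are found nowhere else. In RNU4ATAC 100% of the windows of 30 bases were found at a single place on the main chromosomes of hg38, against 89.3% in RNU12 and 86.4% in RNU5F-1. The share was 60.4% in RNU5E-1, 58.6% in RNU5A-1, 57.1% in RNU4-2, 55.2% in RNU5D-1, 46.4% in RNU4-1 and 37.9% in RNU5B-1. In RNU6ATAC it was 12.4%, the lowest of the 10. The most distinct gene is therefore RNU4ATAC, and the values of RNU5B-1 and RNU6ATAC are the ones most open to sharing.

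**Figure D1:**
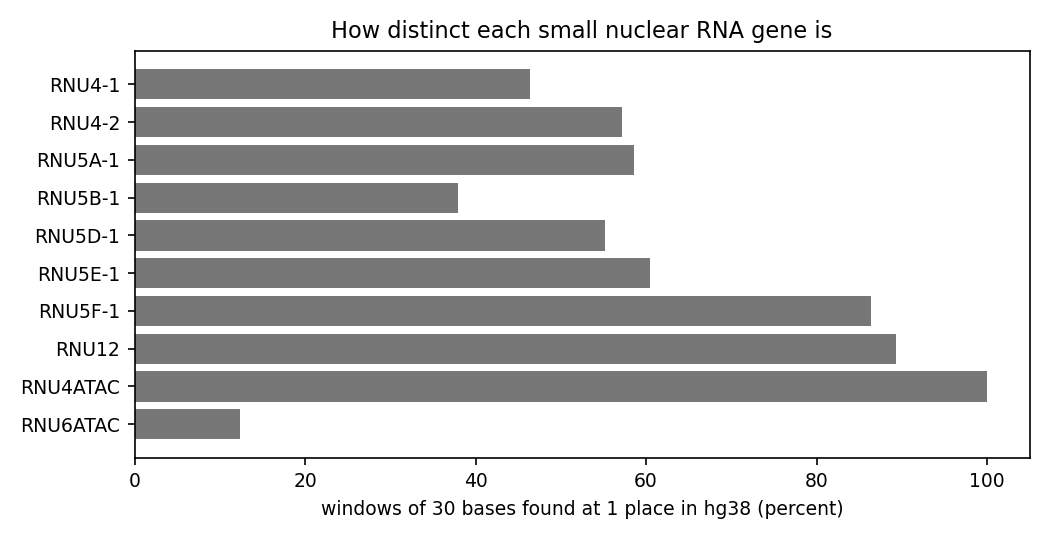
Share of the windows of 30 bases in each of the 10 genes that occur at a single place on the main chromosomes of hg38 (horizontal axis, percent, from 0), with 1 bar per gene. RNU4ATAC stands at 100% and RNU6ATAC at 12.4%.

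Before the results, the libraries were checked against their labels. RNAs of BRD2 and BRD3, BET proteins that GNE-987 degrades, were present in all 4 libraries, and since the compound acts on the protein this does not check the labels. BRD2 was at 34.4 and 36.5 FPKM (fragments scaled by gene length and by the size of the library) in control and 120 and 120 FPKM with GNE-987, and BRD3 at 3.69 and 3.28 against 1.77 and 1.83 FPKM. The control libraries went against the cell line's label: 8 granulocytic marker genes summed to 3.41 and 3.91 FPKM, with MPO at 0.0246 and 0 and 2 of the 8 (ELANE and CTSG) listed at 0 in both, while 8 erythroid marker genes summed to 426 and 403 FPKM, with GATA1 at 124 and 122. The sums were 27.6 and 26.5 FPKM for the granulocytic and 769 and 656 FPKM for the erythroid genes with GNE-987, and the part of these differences in the results below was not tested. Reads on genes were estimated at 19347286 and 19142227 in control and 12238111 and 12740693 with GNE-987, so the treated libraries are the shallower pair. The deposited values were scaled to other totals, 23024012 and 22120718 reads in control and 8360488 and 8826052 with GNE-987, by which 1 read in the GNE-987 libraries is worth 2.75 and 2.61 times as much as in control replicate 1.

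Of the 10 genes, 7 were near or at 0 in control and high with GNE-987, and the other 3 were listed at 0 in all 4 libraries. For each of the 7, both GNE-987 libraries were above both control libraries, a direction that chose the genes and that 47.5% of the 16668 genes tested share. Reads on the 10 genes together numbered 4 and 6 in control, and 1030 and 1077 with GNE-987. A change in the number of cells of a type and a change in RNA per cell cannot be told apart in such bulk samples.

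**Figure D2:**
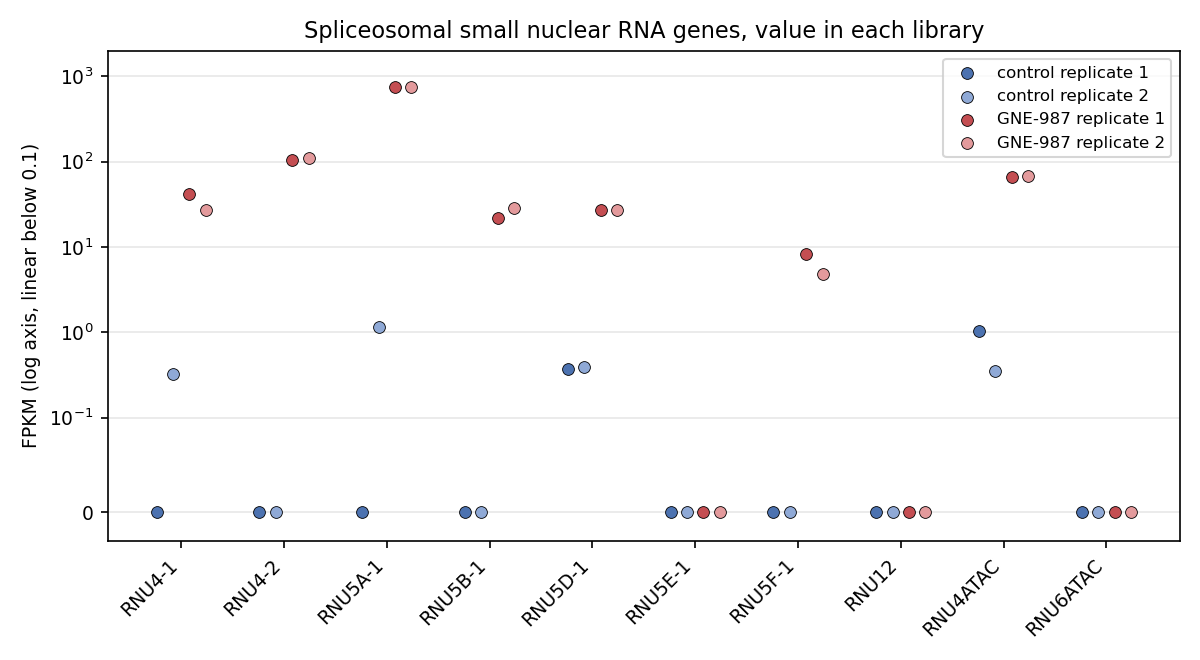
FPKM of the 10 snRNA genes (horizontal axis) in each of the 4 libraries (vertical axis, log scale that is linear below 0.1), 1 point per library, blue for control and red for GNE-987. The GNE-987 points of 7 genes run from 4.84 to 755.8 FPKM, above control points of at most 1.17 FPKM, and RNU5E-1, RNU12 and RNU6ATAC are at 0 throughout.

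U5 is the family with the highest values. RNU5A-1 had 0 and 3 reads in control (0 and 1.17 FPKM), and 733 and 765 reads with GNE-987 (755.8 and 747.2 FPKM). Its mean was 0.585 ± 0.827 FPKM in control and 751.5 ± 6.09 FPKM with GNE-987 (SD, n = 2). Ratios here are of the reads summed over each group, divided by the summed totals used for the deposited scaling, and so differ slightly from a ratio of mean FPKM. For RNU5A-1 this ratio was 1312, and its 95% exact binomial interval, from 448 to 6367, covers counting error only. In the GNE-987 mean it ranked 96 among all genes of the table. It held 93.0% and 92.5% of the reads of the 5 U5 genes in the GNE-987 libraries and 71.2% and 71.0% of those of all 10 genes.

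The other U5 genes were far lower. RNU5D-1 was at 0.374 and 0.390 FPKM in control, 1 read in each, and at 26.8 and 27.3 FPKM with GNE-987, 26 and 28 reads. Its ratio was 70.9, with an interval from 18.7 to 601. RNU5B-1 had no read in either control library and was at 21.7 and 28.3 FPKM with GNE-987, 21 and 29 reads, at least 43.8-fold higher when the control group is set at a floor of 3 reads. The levels of RNU5D-1 (27.1 ± 0.381 FPKM) and RNU5B-1 (24.99 ± 4.72 FPKM) with GNE-987 differed by less than the spread between libraries.

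RNU5F-1, the U5 copy that is the most distinct in sequence, also had no read in control. It was at 8.18 and 4.84 FPKM with GNE-987, 8 and 5 reads, at least 11.4-fold higher against the same floor. RNU5E-1 was listed at 0 in all 4 libraries, where 3 reads would have been 1.09 to 1.13 FPKM in control and 2.83 to 2.99 FPKM with GNE-987. In order of level with GNE-987, RNU5A-1 stood first among the U5 genes, RNU5D-1 and RNU5B-1 next without a clear order, then RNU5F-1. RNU5E-1 was last, and its 0 is limited by depth and by a gene that overlaps it, given below.

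The U4 genes were at most 1 read in a control library. RNU4-2 was listed at 0 in both and was at 104 and 112 FPKM with GNE-987, 123 and 139 reads, at least 229-fold higher against the floor. RNU4-1 was at 0 and 0.321 FPKM in control, 0 and 1 read, and at 41.6 and 27.3 FPKM with GNE-987, 49 and 34 reads, a ratio of 218 with an interval from 38.1 to 8714. RNU4-2 took 71.5% and 80.3% of the U4 reads of the GNE-987 libraries, 2.51 and 4.09 times as many as RNU4-1, and the 2 genes do not overlap in level. Their 4 differing bases are all that separates reads of one gene from those of the other.

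Of the minor-spliceosome genes only RNU4ATAC was above 0. U4atac is the counterpart of U4 on minor introns. RNU4ATAC was at 1.03 and 0.356 FPKM in control, 3 and 1 reads. With GNE-987 it was at 65.9 and 68.7 FPKM, 70 and 77 reads. The means were 0.691 ± 0.474 and 67.3 ± 1.96 FPKM (SD, n = 2). The ratio of summed reads was 96.5, with an interval from 36.9 to 359. This gene shares no window of 30 bases with another place in hg38, so its reads are the ones least open to sharing.

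RNU12, which recognises the branch site of minor introns, and RNU6ATAC, the U6 counterpart, were listed at 0 in all 4 libraries. For RNU12, 3 reads would have been 0.869 to 0.904 FPKM in control and 2.27 to 2.39 FPKM with GNE-987, and for RNU6ATAC 1.03 to 1.08 and 2.70 to 2.85 FPKM. A 0 for RNU12 and RNU5E-1 has a limit of its own, since both lie in an exon of a long noncoding RNA gene on the same strand, where a read could be given to either gene or to none. ENSG00000270022, which starts at the first base of RNU12 (chr22:42615244-42615907), was at 0.131 and 0.0681 FPKM in control and 7.75 and 6.31 FPKM with GNE-987, 2, 1, 43 and 37 reads. ENSG00000285646, which spans RNU5E-1 (chr1:11907940-11914298), was at 0.118 and 0.0613 FPKM in control and 2.60 and 2.77 FPKM with GNE-987. Where in these genes the reads lie was not tested.

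Across families, the order of levels with GNE-987 was RNU5A-1, RNU4-2 (108 ± 5.20 FPKM), RNU4ATAC, RNU4-1 (34.4 ± 10.1 FPKM), RNU5D-1, RNU5B-1 and RNU5F-1 (6.51 ± 2.36 FPKM). RNU4-1 and RNU5D-1 are neighbours in that order whose means differ by less than the spread of RNU4-1, whose lower library at 27.3 FPKM matched RNU5D-1. Under a scaling to each library's estimated reads, which lowers the log2 fold change of every gene by 0.77 before a pseudocount is added, the ratios were 769 for RNU5A-1, 128 for RNU4-1, 56.6 for RNU4ATAC and 41.6 for RNU5D-1. On that scaling the lower bounds were 135 for RNU4-2, 25.7 for RNU5B-1 and 6.68 for RNU5F-1.

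The other annotated copies of the same families did not hold reads on this scale. Of 180 further rows of U4, U5, U12, U4atac and U6atac copies, 57 were above 0, and 11 had both GNE-987 libraries above both control libraries against 5 with the reverse. Together they took 77 and 59 reads in control and 88 and 133 with GNE-987, against 4, 6, 1030 and 1077 on the 10 genes. The reads in this paragraph are not scaled. In FPKM 1 read of the GNE-987 libraries is worth 2.75 and 2.61 times as much as in control replicate 1. Similar reads in the 2 groups are therefore not similar FPKM. The 26 further U5 rows took 4 and 5 reads in control and 21 and 41 with GNE-987, and the 95 U4 rows 49 and 41 against 52 and 79. The U6atac rows took 20, 9, 13 and 8 reads, while RNU6ATAC itself took 0.

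Among single copies, RNU5E-4P had the highest level in the U5 family, at 1.09 and 0.377 FPKM in control and 10.96 and 26.4 FPKM with GNE-987. It lies 1537 bases past the 3′ end of RNU5E-1. In the U4 family the highest was an unnumbered U4 copy, ENSG00000276103, at 1.48 and 1.55 FPKM in control and 12.3 and 22.3 FPKM with GNE-987. RNU12-2P, the single further U12 copy, was at 0 and 0.580 FPKM in control and 0 and 1.45 FPKM with GNE-987, 2 reads in each of 2 libraries. RNU4ATAC11P and RNU6ATAC14P reached 2.70 and 6.57 FPKM in their highest library, 3 and 5 reads.

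**Figure D3:**
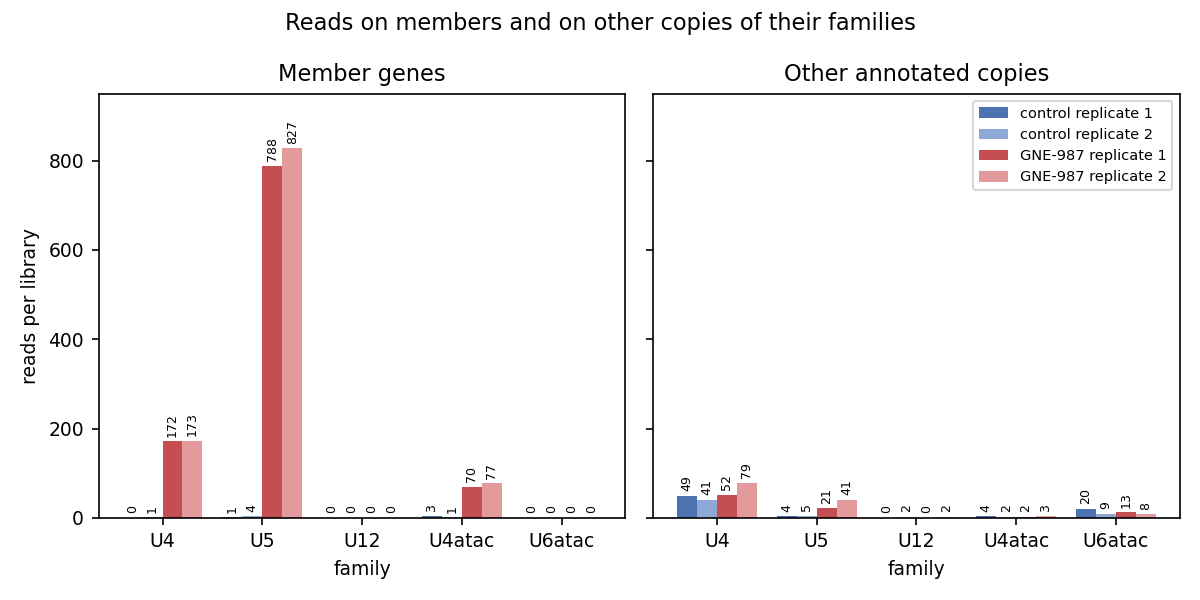
Reads per library (vertical axis, from 0) on the member genes of each family (left) and on the other annotated copies of that family (right), with 1 bar per library, blue for control and red for GNE-987. The U5 members hold 788 and 827 reads with GNE-987 and the other U5 copies 21 and 41. Reads are not scaled between libraries.

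The genes beside the 7 detected snRNA genes did not share one pattern. RNU5A-1 lies outside the exons of PARP16, an ADP-ribosyltransferase gene on the opposite strand, which was at 1.95 and 2.28 FPKM in control and 4.02 and 3.17 FPKM with GNE-987. RNU4ATAC lies in an intron of CLASP1, on the opposite strand, which encodes a microtubule-binding protein and was at 7.54 and 8.52 against 6.39 and 6.94 FPKM. It also overlaps CLASP1-AS1 outside its exons, at 0.127 and 0.199 against 2.28 and 1.16 FPKM, and RNU5F-1 overlaps ARMH1 outside its exons, at 0 and 0 against 0.109 and 0.172 FPKM. In the GNE-987 libraries each of these genes was below the snRNA gene it overlaps.

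The nearest neighbours in this paragraph, those of the detected genes other than RNU4ATAC, were higher with GNE-987, except RNF220. Both GNE-987 libraries were above both control libraries in 47.5% of all 16668 genes tested. Of the neighbours of RNU4ATAC, given in the next paragraph, RALB was higher and NIFK-AS1 lower. Nearest neighbours, here and for the undetected genes, had to reach a mean of 0.5 FPKM. Those at or near 0 in control were therefore taken only through their GNE-987 values, and their direction is a description. The processed pseudogene ENSG00000259346, between RNU5A-1 and RNU5B-1, was listed at 0 in control and at 20.5 and 24.4 FPKM with GNE-987, and NME2P1, 9047 bases past RNU4-2, was at 0.105 and 0 against 20.2 and 16.7 FPKM. KIF2C, which encodes a mitotic kinesin, lies 8648 bases before RNU5D-1 and was at 45.8 and 46.3 against 95.1 and 102 FPKM. SIRT4, 9079 bases before RNU4-1, was at 0.995 and 0.592 against 1.17 and 1.76 FPKM. On the other side of RNU5F-1, 70063 bases away, RNF220 was lower, at 4.95 and 4.88 against 0.309 and 0.421 FPKM. Other neighbours with low levels were CILP and IGDCC3. CILP, 84578 bases before RNU5A-1, was at 0 and 0.00794 against 1.03 and 1.11 FPKM. IGDCC3, 22335 bases past RNU5B-1, was at 0 and 0 against 3.21 and 3.67 FPKM.

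The 3 undetected genes also had measured neighbours. WDR5, a subunit of histone methyltransferase complexes, lies 4471 bases past RNU6ATAC and was at 25.5 and 23.5 FPKM in control and 8.87 and 9.83 FPKM with GNE-987. RXRA, before RNU6ATAC, was at 2.67 and 2.52 against 0.626 and 0.603 FPKM. POLDIP3 and CYB5R3, 282 and 337 bases on either side of RNU12, went in opposite directions, at 26.3 and 24.8 against 15.3 and 16.5 FPKM and at 14.9 and 13.9 against 45.7 and 46.5 FPKM. NPPB, before RNU5E-1, was listed at 0 in control and was at 1.72 and 5.06 FPKM with GNE-987. The neighbours of RNU4ATAC, RALB (15.1, 15.0, 20.8 and 17.0 FPKM) and NIFK-AS1 (3.29, 3.03, 1.69 and 2.62 FPKM), lie 1236171 and 118313 bases away.

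The promoter of the highest U4 gene is printed because snRNA promoters carry a distal element with the octamer that binds the factor Oct-1. It runs from 250 bases before to 50 bases after the first base of RNU4-2 in hg38, chr12:120291854-120292153 on the minus strand, and capitals mark the octamer, ATTTGCAT.
RNU4-2 promoter: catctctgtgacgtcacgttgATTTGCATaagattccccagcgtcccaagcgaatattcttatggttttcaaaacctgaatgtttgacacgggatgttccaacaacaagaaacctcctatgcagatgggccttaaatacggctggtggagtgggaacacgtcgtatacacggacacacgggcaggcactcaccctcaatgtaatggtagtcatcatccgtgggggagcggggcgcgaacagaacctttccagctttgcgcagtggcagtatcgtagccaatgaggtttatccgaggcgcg

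Searched on both strands in this window, the octamer letters were in 6 of the 10 promoters, those of RNU4-2, RNU5A-1, RNU5B-1, RNU5E-1, RNU5F-1 and RNU4ATAC. They began 229 bases before the gene in RNU4-2 and RNU4ATAC (on the minus strand in the latter), 227 in RNU5F-1, 220 in RNU5E-1, 212 in RNU5B-1 and 203 in RNU5A-1. Of 35116 RefSeq promoters of the same length (GRCh38.p14), 623 (1.77%) held the letters on either strand. RNU5E-1, listed at 0 throughout, held them, and RNU4-1 and RNU5D-1, which had reads, did not.

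Other snRNA genes, which the rule did not take, are given by their counts. A list of 42 genes of the U1, U1 variant, U2, U6, U7 and U11 families and 7SK had 39 genes in the table by symbol, 28 of them above 0 in a library, and 24 passed the filter of a mean of at least 0.5 FPKM. Genes were called at an unadjusted p under 0.05 from limma with a fold change above 2 or below 0.5, and of the 24 tested 21 were higher, 0 lower and 3 neither. Over all 16668 genes tested, 33.6% were higher and 24.9% lower. With an unadjusted limma p under 0.05 alone, 22 were higher and 0 lower. The share of all tested genes by p alone was not worked out, here or for the lists below. Counts by p alone therefore have no base and are a description. The list's median log2 fold change was 5.36, against 0.17 for all genes tested. Most of these genes had few or no reads in control and passed the filter through the GNE-987 libraries, so they had to differ, the count and the median are a description that supports nothing, and these copies share reads with each other.

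RNVU1-6, a variant U1 gene, had the highest mean of the list, at 0 and 0.551 FPKM in control and 326.7 and 333.0 FPKM with GNE-987. These are 0 and 2 reads against 448 and 482. RNVU1-26 was at 1.07 and 0.837 against 281.3 and 292.3 FPKM, 4 and 3 reads against 381 and 418. U1 pairs with the start of introns.

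The next in level also had few control reads. RNVU1-24 was at 0 and 0.279 against 127 and 132 FPKM, RNVU1-31 at 0 and 0 against 131 and 95.3 FPKM, RNVU1-4 at 8.74 and 5.24 against 93.4 and 106 FPKM, and RNVU1-27 at 1.84 and 0 against 52.2 and 75.5 FPKM, each with both GNE-987 libraries above both control libraries. RNVU1-4 was the highest of these in control, with 33 and 19 reads. RNU11, the U12 partner in the minor spliceosome, was at 0 in 3 libraries and at 1.69 FPKM in GNE-987 replicate 2, and did not pass the filter.

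**Figure D4:**
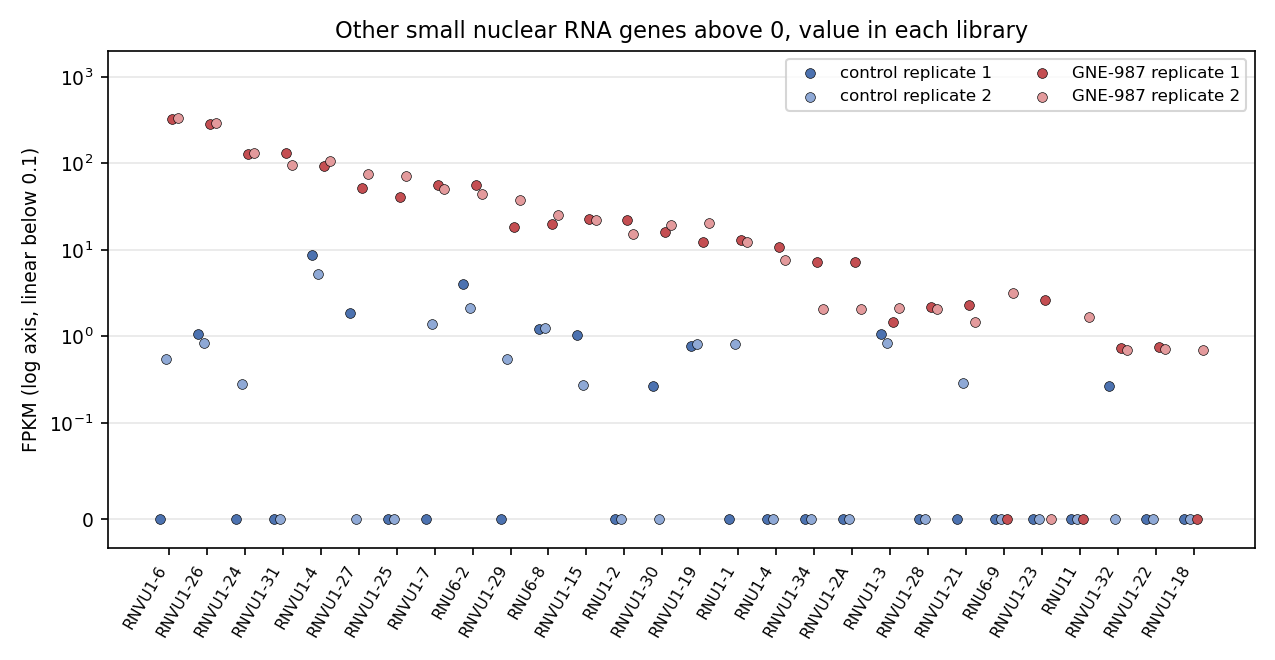
FPKM in each of the 4 libraries (vertical axis, log scale that is linear below 0.1) of the 28 listed snRNA genes outside the 10 that were above 0 in a library, ordered by mean, blue for control and red for GNE-987. RNVU1-6 and RNVU1-26 lie between 281.3 and 333.0 FPKM with GNE-987, and the control points are at most 8.74 FPKM.

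Over all genes that GENCODE types as snRNA, reads were 794 and 664 in control and 6015 and 6179 with GNE-987, which is 0.00410% and 0.00347% of the reads on genes in control and 0.0491% and 0.0485% with GNE-987. The 10 genes made up 0.504% and 0.904% of these reads in control and 17.1% and 17.4% with GNE-987. Of the 310 other snRNA rows tested, 155 were higher and 21 lower. Of 1488 tested genes with under 300 bases of exon, 46.8% were higher and 8.80% lower, against 32.2% and 26.5% of the 15068 longer genes. By type, 33.3% of 150 snoRNA, 41.7% of 12 scaRNA, 32.1% of 243 miRNA and 43.8% of 267 misc_RNA genes were higher, and 57.2% of 537 short genes of none of these types. Since a short gene needs fewer reads in a GNE-987 library than in a control library to pass the filter, the filter favours genes that are higher with GNE-987, and these shares are a description.

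The mRNAs of proteins that make, carry and break down snRNAs were examined in 7 lists. Of the 119 genes 118 were tested, and 8 were higher, 43 lower and 67 neither with GNE-987, with a median log2 fold change of -0.49. For comparison, 24% of the 10996 tested protein-coding genes passed as higher and 31.7% as lower, with a median of -0.29. Scaling changes this split, to 4 higher and 71 lower with scaling to total reads, which lowers the median over all genes by 0.73, and to 2 higher and 107 lower with scaling to GAPDH, which lowers it by 1.77.

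Of the 14 promoter and transcription factors of snRNA genes, 3 were higher and 4 lower, shares near those of all tested protein-coding genes (24% and 31.7%). ZNF143, which binds snRNA promoters, was at 2.63 and 2.87 FPKM in control and 21.2 and 21.0 FPKM with GNE-987, a log2 fold change of 2.90 ± 0.07 (SE). Of the 5 subunits of SNAPc, the complex on the proximal element, 2 were higher: SNAPC5 was at 7.22 and 5.46 against 43.7 and 49.99 FPKM (2.88 ± 0.17) and SNAPC4 at 9.71 and 10.4 against 67.2 and 68.7 FPKM (2.75 ± 0.05). The other SNAPc subunits, named after their values were seen, were not called, with log2 fold changes of -0.82 for SNAPC1, -0.0049 for SNAPC2 and -0.65 for SNAPC3. With scaling to GAPDH, SNAPC4 had a log2 fold change of 0.90 and was no longer called. ICE2, of the little elongation complex that acts at snRNA genes, fell by 1.81 on the log2 scale, BDP1, of the RNA polymerase III machinery, by 1.36, and ZC3H8, also of the little elongation complex, by 1.14 (-0.87 and not called with a pseudocount of 1).

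Integrator, which cuts the 3′ ends of nascent snRNAs, had 1 of 15 subunits higher and 6 lower, with a median of -0.93. INTS3 was at 4.22 and 4.36 FPKM in control and 0.847 and 1.02 FPKM with GNE-987, a log2 fold change of -2.09 ± 0.14. INTS7 fell by 1.90 and INTS13 by 1.84 on the log2 scale. INTS5 was higher, by 1.56 ± 0.05, and had a log2 fold change of 0.79 with scaling to total reads and -0.29 with scaling to GAPDH.

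The 26 genes of export, assembly and end maturation had 0 higher and 15 lower, with a median of -1.26 (0 higher with a Benjamini-Hochberg adjusted limma p too). With an unadjusted limma p under 0.05 alone, 2 were higher and 22 lower, a count without a share over all genes beside it. DDX20, the helicase of the SMN complex that loads Sm rings, was at 6.26 and 6.60 against 0.696 and 0.621 FPKM, a log2 fold change of -3.11 ± 0.12. PHAX, the export adaptor of snRNAs, was at 6.25 and 6.53 against 0.859 and 0.944 FPKM (-2.70 ± 0.11), and GEMIN7, another SMN complex member, at 8.30 and 7.91 against 1.25 and 1.18 FPKM (-2.64 ± 0.09). In each of these genes the GNE-987 libraries lay below the control libraries.

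The 16 genes of the nuclear exosome and its helpers, which degrade nuclear RNAs, had 0 higher and 9 lower and the lowest median of the 7 lists, -1.52 (also 0 higher by adjusted limma p). With an unadjusted limma p under 0.05 alone, 1 was higher and 11 lower, again without a share over all genes. RBM7, an adaptor of the exosome, was at 2.38 and 2.02 against 0.228 and 0.244 FPKM, a log2 fold change of -2.77 ± 0.20. EXOSC3, a subunit, was at 22.8 and 23.5 against 3.88 and 3.598 FPKM (-2.60 ± 0.07), and MTREX, the helicase that feeds it, at 19.7 and 21.2 against 3.53 and 3.12 FPKM (-2.59 ± 0.09).

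The proteins of the particles themselves were mixed. Of 14 tested Sm and LSm ring genes, 3 were higher and 2 lower, with SNRPD2 higher by 1.78 ± 0.07, LSM4 by 1.43 ± 0.04 and LSM3 by 1.01 ± 0.08, and with LSM2 at -1.77 ± 0.08 and SNRPD1 at -1.52 ± 0.07. The 3 increases turned to -0.070, -0.42 and -0.83 with scaling to GAPDH, and were no longer called with quantile normalization (0.61, 0.44 and 0.80). LSM4 and LSM3 were also not called with scaling to total reads (0.66 and 0.25), nor LSM3 with a pseudocount of 1 (0.975), without control replicate 2 (0.961) or without GNE-987 replicate 1 (0.931). Of 18 proteins of U5 and the U4/U6.U5 tri-snRNP, 0 were higher and 3 lower, SART3 (-2.09 ± 0.13), which joins U4 and U6, the helicase DDX23 (-1.97 ± 0.08) and SNRNP40 (-1.76 ± 0.07). In that list 8 were higher and 8 lower with an unadjusted limma p under 0.05 alone, for which no share over all genes was worked out. With the fold threshold and an adjusted limma p, 0 were higher and 3 lower.

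Of 15 minor-spliceosome proteins, 1 was higher and 4 lower, with a median of -0.21. The share lower was near the 31.7% of all tested protein-coding genes. PPIL2 (-2.20 ± 0.05), ARMC7 (-1.83 ± 0.17) and SNRNP35 (-1.67 ± 0.27), the last a protein of the U11/U12 particle, were lower, SNRNP35 with -0.99 and no longer called with a pseudocount of 1. CENATAC was higher by 1.09 ± 0.15, had a log2 fold change of -0.70 with scaling to GAPDH, and was not called with quantile normalization (0.93), scaling to total reads (0.35), a pseudocount of 1 (0.85) or without GNE-987 replicate 1 (0.923). All genes named as higher or lower from the 7 protein lists had a Benjamini-Hochberg adjusted p of 0.00649 or less from limma over all tested genes. This does not cover SNAPC1, SNAPC2 and SNAPC3, which were not called.

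**Figure D5:**
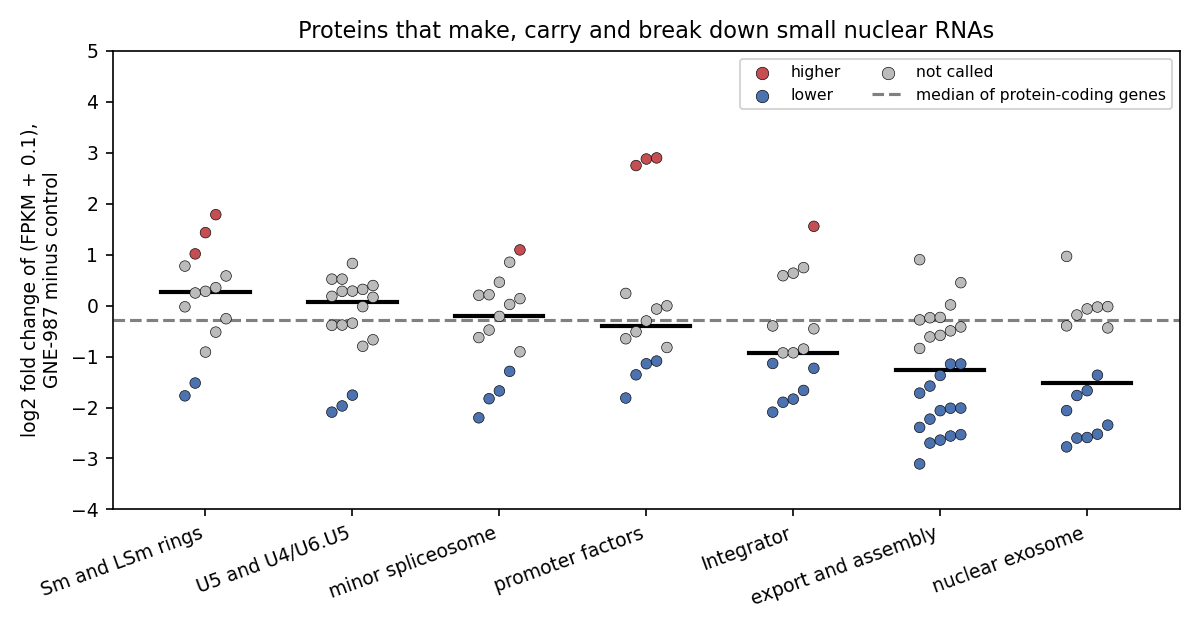
Log2 fold change of FPKM + 0.1, GNE-987 minus control (vertical axis), for each tested gene of 7 lists of snRNA-related proteins, 1 point per gene, red where higher, blue where lower and grey where not called, with black bars at list medians and a dashed line at the median of all protein-coding genes (-0.29). The medians run from 0.26 for the Sm and LSm rings to -1.52 for the nuclear exosome.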

How the data were processed

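RNA-seq was analysed for 2 control and 2 GNE-987 libraries, grouped by their labels. The authors filtered reads, mapped them with HISAT (HISAT2 2.0.5 and hg38 in the submitters' processing notes), used DESeq2 for differential expression and deposited a table of FPKM values. The counting program and its annotation are not given in the sources used here. Per the labels, libraries were made with an Illumina TruSeq RNA kit from total RNA.

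Identifiers were named from GENCODE release 44 (58207 of 58735 matched, 99.1%). Reads were worked out from the step that 1 read makes in FPKM. At GENCODE exon lengths, 53.4% of 32627 genes above 0 came out within 0.01 of a whole read in all 4 libraries, among them every detected snRNA gene of the 10. Totals of other genes are estimates, so no count test was run. Intervals are exact binomial (95%), and floors are 3 reads over the group or, for a single library, in that library. Both cover counting error only. The 16668 genes whose mean reached 0.5 FPKM were tested on log2(FPKM + 0.1), which understates the change of low genes, with limma 3.58.1 in R 4.3.3 (empirical Bayes with trend, no block), calling genes at an unadjusted p under 0.05 with a fold change above 2 or below 0.5. Adjusted p-values are Benjamini-Hochberg over all tested genes. Scripts used Python 3.11.15 and scipy 1.17.1, and of the steps the limma calls were tested on simulated data.

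The 10 genes and the lists were chosen with earlier results of these data known. The text names the 10 genes, their overlapping genes and nearest neighbours above the same filter, the highest copy of each family, the 6 highest other snRNA genes and RNU11, and up to 3 higher and 3 lower genes per protein list, the largest changes without overlap between groups, with the BET and marker genes. None of the 10 genes was in the RefSeq promoter table, so promoters were read from hg38. One BET gene and some sequences are not reported here. The alternatives were other scalings (GAPDH, quantile, median-ratio, total reads), other pseudocounts (1 and 0.01), other filters (none, or a mean of 1 FPKM), adjusted p-values, a replicate block and leaving out each library.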

Additional observations from a re-analysis of the deposited data

How the results depend on the processing

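The 7 detected snRNA genes were chosen on their difference, so its sign is no sign of stability. Its size on the log2 scale ran over the alternatives from 8.997 to 12.88 for RNU5A-1, 6.77 to 13.40 for RNU4-2, 4.92 to 9.20 for RNU4-1, 4.81 to 7.21 for RNU4ATAC, 4.69 to 11.27 for RNU5B-1, 4.12 to 6.11 for RNU5D-1 and 2.87 to 9.30 for RNU5F-1. The count of other snRNA genes stayed within 1.5 times of 21 higher and at 0 lower. Scaling to GAPDH gave 3031 genes higher and 9738 lower over all genes, and 2 higher and 107 lower in the protein lists, and turned SNRPD2 to -0.0698, LSM4 to -0.42, LSM3 to -0.83, CENATAC to -0.70 and INTS5 to -0.29. Scaling to total reads gave 6626 genes lower over all genes, and 4 higher and 71 lower in the protein lists. Quantile normalization gave 4 higher in the protein lists, and no filter 8757 genes higher over all genes. Scaling to GAPDH or to total reads lowers every gene by construction, no filter tests more genes, and the cause of the rest was not tested. The deviations of same-numbered libraries from their group means had a correlation of 0.00537. That value cannot tell whether these libraries shared a culture or a batch. With the replicate block, 5667 genes were higher and 4186 lower, 8 and 43 in the protein lists and 21 and 0 among other snRNA genes. Depth limits the 3 genes listed at 0 and the control levels, which rest on at most 3 reads per library. For RNU12 and RNU5E-1 the exon of a long noncoding RNA gene that they lie in is a further limit.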

Other observations

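Outside the named lists, and chosen after their values were seen, 2 unnumbered snRNA copies were high with GNE-987. The U1 copy ENSG00000273727 (chr1:120354987-120355148, plus strand) was at 5.90 and 2.79 FPKM in control and 1078 and 1005 FPKM with GNE-987, above RNU5A-1. The U2 copy ENSG00000278048 (chr17:43251829-43252019, minus strand) was at 9.55 and 3.55 FPKM in control and 247.4 and 224.8 FPKM with GNE-987. Reads of both can be shared with the other U1 and U2 genes.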
